A study of Mus musculus with 6 samples.

Results

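The genes described here are 34 components and transcriptional targets of the p53 pathway, named in a fixed list and found by symbol among 47643 genes of a count table from mouse intestine. All 34 were in the table. The table holds 6 messenger RNA libraries from male C57BL/6 mice aged 7 to 8 weeks, all of which had been injected with tamoxifen and fed a high-fat diet (60% fat) for 2 weeks. In 3 mice the genotype label is MycΔIE, ERT2, and these are called Myc-deleted; the other 3 carry Mycfl/fl, the floxed gene, and are called controls. The labels name no promoter for a recombinase and do not say whether the controls carry one, so an effect of a recombinase and one of losing Myc cannot be told apart. Intestine is the labelled tissue, with no segment given, although the extraction text speaks of liver. Nothing says how the 3 libraries of a group were collected, so p-values measure the spread between these samples.

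p53 is a transcription factor that is held low by the ubiquitin ligase Mdm2 and accumulates when DNA is damaged, when oncogenes are active or when ribosome production is disturbed. Free ribosomal proteins such as Rpl5 and Rpl11 can bind Mdm2 and keep it from degrading p53. Among the genes that p53 activates are its own inhibitors, inhibitors of cell division, DNA repair factors, sensors of stress and nutrients, and receptors and effectors of cell death. In the intestine, p53 and its targets are known for the response of crypt cells to radiation.

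To show where p53 could bind near these genes, the windows from 250 bases before to 50 bases after each annotated start in the RefSeq promoter table (GRCm38.p6) were searched for the p53 consensus decamer, which reads the same on both strands. Windows were found for 27 members, and 12 of these (44.4%) held the decamer in at least 1 window, against 9.55% of 27025 genes. These were Aen, Ccng1, Cdkn1a, Ckap2, Ei24, Gtse1, Mdm2, Pml, Polk, Rps27l, Sesn1 and Trp53. Of them, Aen, Ccng1, Mdm2 and Rps27l rose and Sesn1 fell in the Myc-deleted libraries, and the others had no call. The members were listed as p53 components and targets, so the comparison with all genes is a description and not a test. In the windows of Phlda3 and Plk2, the tested members with the largest rises, no decamer was found. The p53 full site, a pair of decamers at most 13 bases apart, was in the window of 1 member, Cdkn1a, and of 20 genes in all (0.074%). The Myc E-box CACGTG, searched on both strands, was in windows of 5 members (18.5%), against 8.09% of genes. A match is a description of these letters only. The 250 bases before the start are printed for 3 members, 5′ to 3′ on the gene's strand, with each decamer in capitals: Ccng1, the member with the lowest p, Mdm2, the inhibitor of p53, and the upstream start of Cdkn1a, which holds the full site.
Ccng1 (chr11:40755287-40755536, minus strand): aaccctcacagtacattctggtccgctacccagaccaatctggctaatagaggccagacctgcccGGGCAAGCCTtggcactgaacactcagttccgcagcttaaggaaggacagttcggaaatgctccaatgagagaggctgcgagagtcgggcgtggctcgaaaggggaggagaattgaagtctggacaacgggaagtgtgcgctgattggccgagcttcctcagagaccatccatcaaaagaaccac
Mdm2 (chr10:117710759-117711008, minus strand): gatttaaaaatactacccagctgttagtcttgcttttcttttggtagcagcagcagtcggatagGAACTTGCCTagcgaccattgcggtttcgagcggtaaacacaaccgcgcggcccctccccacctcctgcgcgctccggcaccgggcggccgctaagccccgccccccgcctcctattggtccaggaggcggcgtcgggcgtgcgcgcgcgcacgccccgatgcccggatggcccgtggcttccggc
Cdkn1a (chr17:29090729-29090978, plus strand): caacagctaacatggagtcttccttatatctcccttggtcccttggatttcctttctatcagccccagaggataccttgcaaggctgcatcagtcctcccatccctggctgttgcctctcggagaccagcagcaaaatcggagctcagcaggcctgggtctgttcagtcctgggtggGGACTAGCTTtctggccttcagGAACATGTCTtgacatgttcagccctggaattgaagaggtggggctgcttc
For 4 further members, a decamer is shown with 10 bases on each side, and for Rps27l both of its decamers. They are Aen and Rps27l, which were higher in the Myc-deleted libraries, Sesn1, which was lower, and Trp53 itself, for which no change was called.
Trp53 (chr11:69580274-69580303, plus strand): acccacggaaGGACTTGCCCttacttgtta
Aen (chr7:78895927-78895956, plus strand): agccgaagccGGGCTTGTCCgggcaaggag
Rps27l, first decamer (chr9:66946193-66946222, plus strand): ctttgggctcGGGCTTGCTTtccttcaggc
Rps27l, next decamer (chr9:66946296-66946325, plus strand): gggcttgttgAGACTTGTCCgggcgacacg
Sesn1 (chr10:41887256-41887285, plus strand): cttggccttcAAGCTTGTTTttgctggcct

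Libraries held 10636658 to 11157715 expected counts in the Myc-deleted mice and 9956938 to 11328693 in the controls, and levels are given as CPM, counts scaled to the TMM-corrected library total. Myc, the gene the label says was deleted, had 3.29, 4.36 and 5.81 CPM in Myc-deleted libraries 1 to 3 and 5.86, 6.05 and 6.03 CPM in control libraries 1 to 3. Myc-deleted library 3 came close to the controls, so that its label is not checked by this gene, and the difference did not pass (log2 fold change -0.41 ± 0.22 SE, edgeR adjusted p = 0.318). By exact permutation (two-sided, on log2 CPM) p was 0.1, the lowest value possible with 3 libraries in each group. The summed level of 8 epithelial markers was 20033 to 21779 CPM in the Myc-deleted and 19405 to 21920 CPM in the control libraries. Smooth muscle markers summed to 17.1 to 23.1 CPM in the Myc-deleted and 18.1 to 96.1 CPM in the control libraries, the highest value being that of control library 2, and 7 markers of enteric neurons and glia stayed at or below 1.30 CPM in all libraries. Fewer cells of a type and less RNA per cell cannot be told apart in such bulk samples.

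In the Myc-deleted intestine, 10 of the 34 members rose and 1 fell, by the edgeR quasi-likelihood test with an adjusted p of at most 0.05 over 12720 genes. Of all genes tested, 4.22% rose and 3.73% fell (7.95% together). The groups did not overlap for 16 members with higher and 3 with lower Myc-deleted values, together 57.6% of the 33 tested, against 27.8% of all genes. Risers among the regulators of p53 were Ccng1, Mdm2, Zmat3 and Trp53inp1, and among the arrest genes Plk2. Phlda3 and Dcxr rose among the stress and metabolism genes. The other risers were the death receptor gene Tnfrsf10b, and Aen and the ribosomal protein variant Rps27l from the list of other death effectors. Sesn1 was the faller. At least 2-fold rises were found for 4 of them, Phlda3, Plk2, Ccng1 and Tnfrsf10b, a size and call that 1.35% of all genes reached. No member among the DNA repair genes passed. The median log2 fold change was 0.28 over the 33 members tested, and -0.00212 over all genes tested. Over 34 tested p53 targets outside the list it was 0.05. The list was chosen with earlier results of these data known, so these comparisons with all genes are descriptions and not tests. Of these 33, 3 (Phlda3, Gdf15 and Psrc1) passed the filter on low counts through the Myc-deleted libraries alone, and Eda2r was too low to be tested. The risers Ccng1, Plk2, Phlda3, Tnfrsf10b, Zmat3, Mdm2 and Aen and the faller Sesn1 kept their calls with each library left out in turn. Dcxr, Rps27l and Trp53inp1 did not, as given under each.

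**Figure D1:**
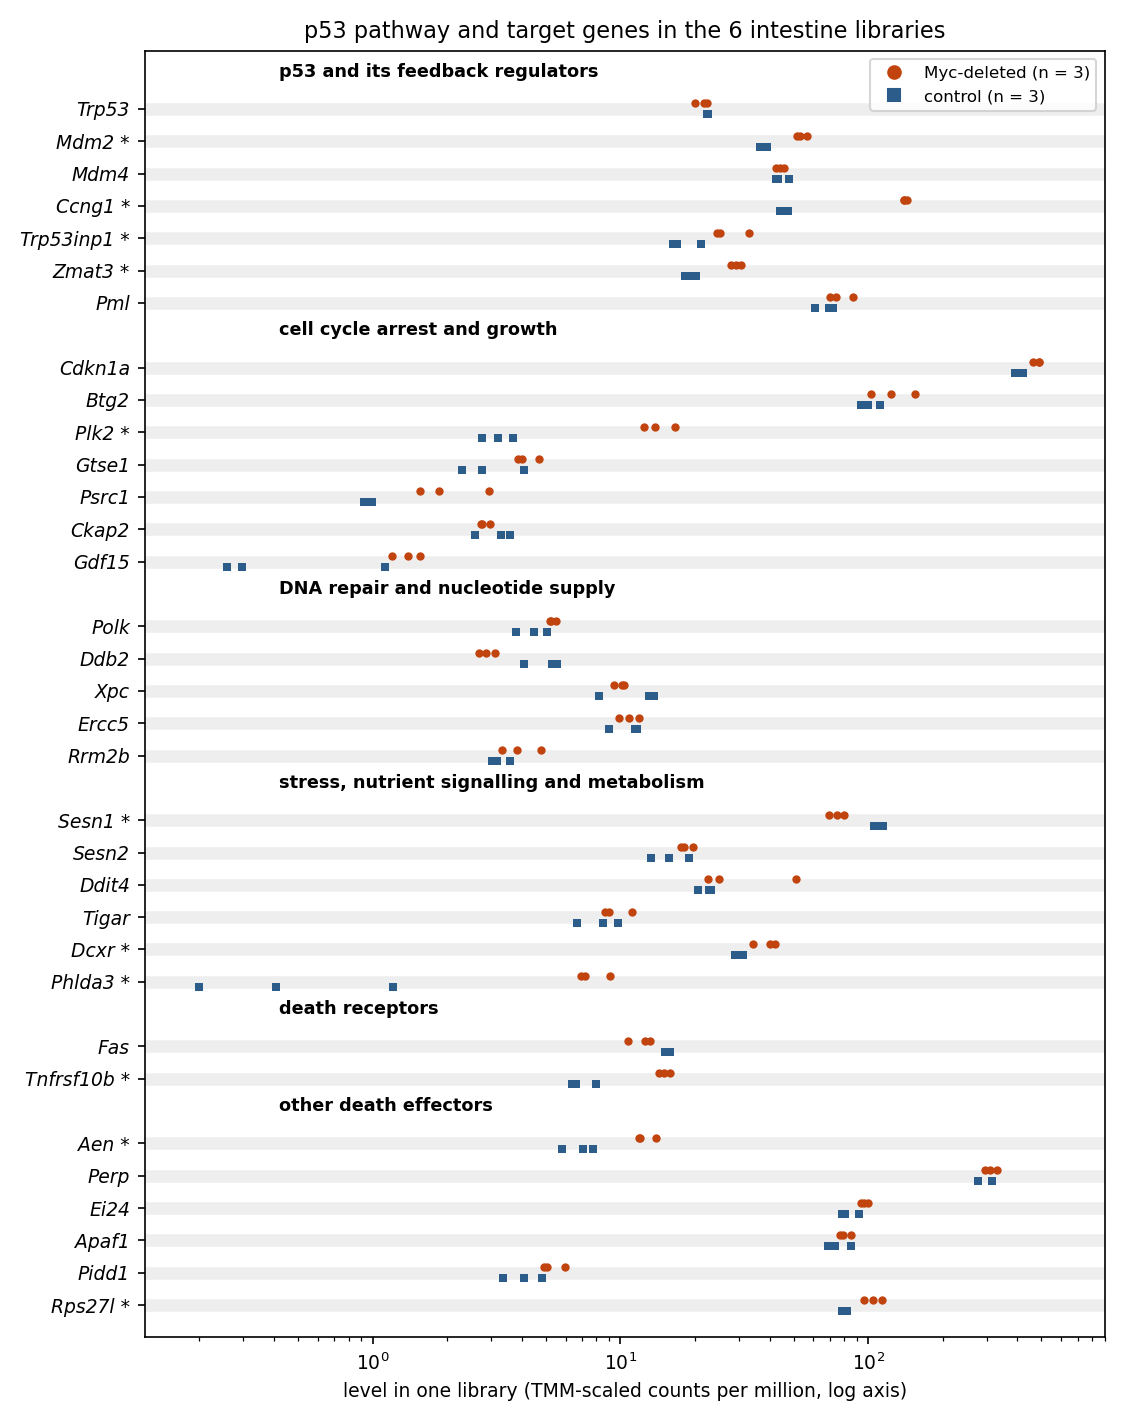
Level of each tested member in each library, in CPM on a log axis, grouped by role, with Myc-deleted libraries (circles, n = 3) above control libraries (squares, n = 3); an asterisk marks an adjusted p of at most 0.05. Phlda3 and Plk2 show the widest gaps between the groups, Sesn1 is the marked gene with lower Myc-deleted values, and Eda2r, at 0 in the controls, is not drawn.

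Trp53 itself, which encodes p53, had 20.0, 21.7 and 22.4 CPM in Myc-deleted libraries 1 to 3, against 22.6, 22.6 and 22.4 CPM in control libraries 1 to 3. The groups overlapped, and the log2 fold change of -0.07 ± 0.09 SE did not pass (edgeR adjusted p = 0.692). p53 is regulated largely as a protein, which these libraries do not measure.

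Among p53 and its feedback regulators, 4 of 7 genes rose, against 4.22% of all genes tested. The median log2 fold change of these 7, Trp53 included, was 0.52. Ccng1 (chromosome 11, 40748552 to 40755311, GRCm38) encodes cyclin G1, which brings a phosphatase to Mdm2. It had 139.6, 143 and 139 CPM in Myc-deleted libraries 1 to 3, against 47.2, 47.0 and 43.9 CPM in control libraries 1 to 3. The libraries of each group lay close together and the groups stood far apart. The rise was 3.05-fold (log2 fold change 1.61 ± 0.07 SE) with an edgeR adjusted p of 1.4e-05, rank 1 of all genes tested.

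Mdm2 (chromosome 10, 117688875 to 117710758) had 52.9, 56.6 and 51.6 CPM in the Myc-deleted libraries and 37.2, 38.9 and 36.5 CPM in the controls. Every Myc-deleted library was above every control, as in 14% of all genes tested, and the gene rose 1.43-fold (log2 0.52 ± 0.08 SE, edgeR adjusted p = 0.00427). Its relative Mdm4, which also inhibits p53, averaged 44.0 ± 1.70 CPM in the Myc-deleted and 44.4 ± 2.91 CPM in the control libraries (SD, n = 3 each). Mdm4 did not pass (log2 fold change -0.01 ± 0.08 SE, edgeR adjusted p = 0.954), and its sign turned without Myc-deleted library 1 or control library 2. Whether Mdm2 and Mdm4 differ in response was not tested.

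Zmat3, a zinc finger protein that binds RNA, had 29.4, 28.0 and 30.6 CPM in the Myc-deleted libraries and 18.2, 19.3 and 20.2 CPM in the controls. The groups did not overlap and Zmat3 rose 1.53-fold (log2 0.61 ± 0.09 SE, edgeR adjusted p = 0.00386). Trp53inp1, a nuclear protein that promotes p53 activity and autophagy, had 32.9, 24.4 and 25.3 CPM in the Myc-deleted libraries and 21.1, 16.3 and 17.0 CPM in the controls. Library 1 was the highest of its group in both genotypes. Trp53inp1 rose 1.52-fold (log2 0.61 ± 0.14 SE, edgeR adjusted p = 0.0316), and the adjusted p was 0.0719 without Myc-deleted library 1, 0.146 without control library 2 and 0.0996 without control library 3. Against a 1.2-fold change it did not pass (glmTreat adjusted p = 0.136). Pml, which organises nuclear bodies that hold p53, did not pass (log2 fold change 0.19 ± 0.10 SE, edgeR adjusted p = 0.306).

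**Figure D2:**
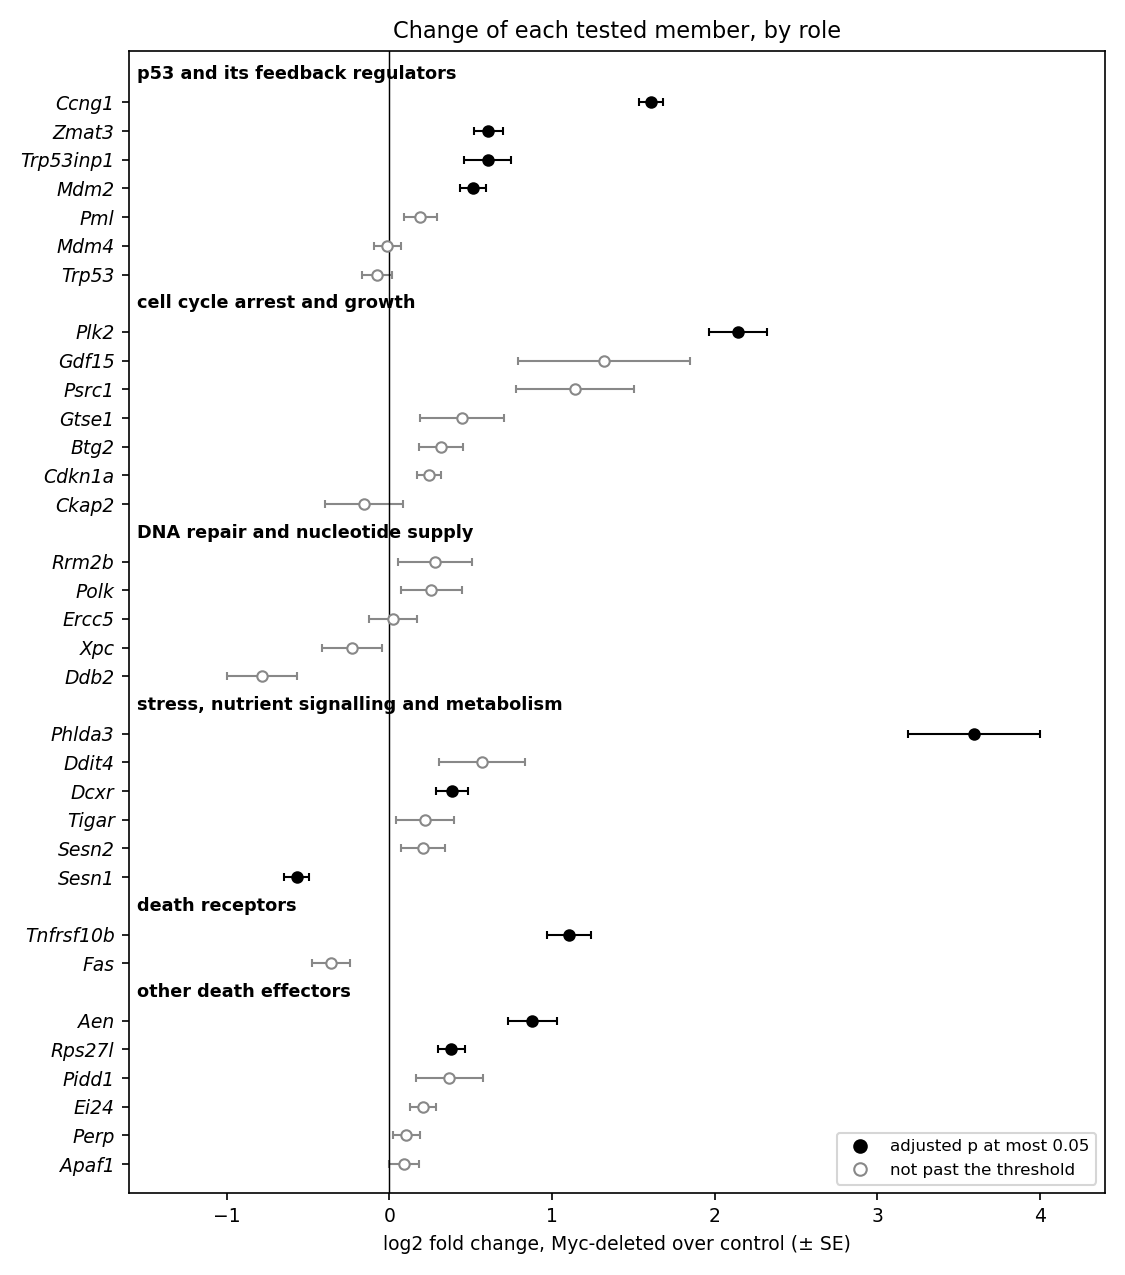
Log2 fold change of each tested member, Myc-deleted over control, with its SE (n = 3 libraries each), ordered by size within each role; filled points have an adjusted p of at most 0.05. Filled points lie right of 0 in every role except DNA repair, from 0.38 (Rps27l) to 3.59 (Phlda3), and Sesn1 at -0.57 is the filled point left of 0.

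The arrest and growth genes had a median log2 fold change of 0.45, but 1 of 7 passed, against 7.95% of all genes tested. Plk2 (chromosome 13, 110395046 to 110400844), a polo-like kinase induced by stress, had 12.4, 16.5 and 13.8 CPM in the Myc-deleted libraries and 3.68, 3.20 and 2.76 CPM in the controls. The lowest Myc-deleted library lay far above the highest control. Plk2 rose 4.43-fold (log2 2.15 ± 0.18 SE, edgeR adjusted p = 0.000375), rank 11 of all genes tested.

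Cdkn1a (chromosome 17, 29090976 to 29100727) encodes p21, the inhibitor of cyclin-dependent kinases and the best known target of p53. It had 488, 490.4 and 463 CPM in the Myc-deleted libraries and 419, 391 and 407 CPM in the controls. Each Myc-deleted library was above each control, yet the difference was small (1.18-fold, log2 0.24 ± 0.07 SE) and did not pass (edgeR adjusted p = 0.0722). DESeq2 called it (DESeq2 adjusted p = 0.0286), while limma voom (0.0647) and the leave-one-out runs (edgeR adjusted p = 0.103 to 0.269) did not. Per kilobase of exon, p21 mRNA was already abundant in the controls (114 CPM per kilobase, against 135 in the Myc-deleted libraries), above every other member but Perp.

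The other arrest and growth genes did not pass. Btg2, an antiproliferative adaptor of mRNA decay, ranged from 103 to 154 CPM in the Myc-deleted and from 93.9 to 111 CPM in the control libraries (log2 fold change 0.32 ± 0.14 SE). Psrc1, a spindle protein, had 17, 20 and 32 counts in the Myc-deleted libraries and 10, 11 and 9 in the controls, without overlap (log2 fold change 1.14 ± 0.36 SE, edgeR adjusted p = 0.0895). Gdf15, a secreted stress cytokine, had 17, 15 and 13 counts in the Myc-deleted libraries and 3, 3 and 11 in the controls. Its log2 fold change of 1.32 ± 0.53 SE did not pass (edgeR adjusted p = 0.174), but did so without control library 3, which held the 11 counts (log2 2.27, adjusted p = 0.0449). Gtse1 (log2 0.45 ± 0.26 SE) and Ckap2 (-0.15 ± 0.24 SE), which bind microtubules and are made in dividing cells, had overlapping groups.

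Of the 5 repair genes none passed. They had a median log2 fold change of 0.02, which turned to -0.02 with upper-quartile scaling and to -0.05 and -0.09 without Myc-deleted library 3 or control library 3. By edgeR, 1 of the 5 had an unadjusted p under 0.05, near the share of all genes in either direction (22.2%), and DESeq2 and limma voom called 0. That gene was Ddb2, which recognises damaged bases for nucleotide excision repair. Ddb2 had 3.11, 2.88 and 2.68 CPM in the Myc-deleted libraries and 5.57, 5.27 and 4.09 CPM in the controls, so that every Myc-deleted library was lower. The log2 fold change of -0.78 ± 0.22 SE did not pass (edgeR adjusted p = 0.0564), but passed with upper-quartile scaling (adjusted p = 0.0465). Ddb2 shares 23.8% of its exon bases with Acp2 on the opposite strand. The kit was stranded, but without a stated strand setting of the counting it is unknown whether Acp2 reads were counted for Ddb2.

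The remaining repair genes did not pass. Xpc, the partner of Ddb2 in damage recognition, averaged 9.96 ± 0.471 CPM in the Myc-deleted and 11.6 ± 3.03 CPM in the control libraries (SD, n = 3 each; log2 fold change -0.23 ± 0.19 SE). Ercc5, the nuclease that cuts on the far side of the lesion, averaged 10.9 ± 1.01 CPM in the Myc-deleted and 10.7 ± 1.48 CPM in the control libraries. Polk, a polymerase that copies damaged DNA, had a log2 fold change of 0.26 ± 0.19 SE, and Rrm2b, a ribonucleotide reductase subunit, one of 0.28 ± 0.23 SE. None of these 4 had an edgeR adjusted p below 0.47.

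Among the 6 stress, nutrient and metabolism genes, 2 rose and 1 fell, against 4.22% and 3.73% of all genes tested. Phlda3 (chromosome 1, 135766119 to 135769136), a small protein that competes with the kinase Akt for the membrane, had 76, 98 and 78 counts in the Myc-deleted libraries and 2, 14 and 4 in the controls. In CPM these were 6.95, 9.10 and 7.20 in the Myc-deleted and 0.199, 1.21 and 0.409 in the control libraries. The control level was near the limit of detection and varied between libraries, so the size of the rise is imprecise. The fitted rise was 12.1-fold (log2 3.59 ± 0.40 SE, edgeR adjusted p = 0.00121), and with single libraries left out the log2 fold change ranged from 3.20 to 4.62, the highest being without control library 2.

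Sesn1 (chromosome 10, 41809935 to 41908424) encodes a sestrin, which restrains the growth kinase mTORC1. It had 79.7, 74.6 and 69.6 CPM in the Myc-deleted libraries and 106, 112 and 114 CPM in the controls. The groups did not overlap and Sesn1 fell, being 1.49-fold lower (log2 fold change -0.57 ± 0.08 SE, edgeR adjusted p = 0.00264). Its relative Sesn2 had 18.1, 19.6 and 17.6 CPM in the Myc-deleted libraries and 13.3, 15.7 and 18.9 CPM in the controls. The Sesn2 groups overlapped (log2 fold change 0.21 ± 0.13 SE, edgeR adjusted p = 0.414), and the difference between both sestrins in response was not tested.

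Dcxr, a reductase of xylulose and other carbonyls, had 42.2, 40.0 and 34.2 CPM in the Myc-deleted libraries and 28.9, 31.1 and 29.0 CPM in the controls. It rose 1.31-fold (log2 0.39 ± 0.10 SE, edgeR adjusted p = 0.0414). The call did not hold with DESeq2 (adjusted p = 0.0612), with upper-quartile scaling (0.0647), with a block for replicate number (0.0511) or without a library other than Myc-deleted library 3 (0.097 to 0.136). Nor did it hold against a 1.2-fold change (glmTreat adjusted p = 0.39). Ddit4, another inhibitor of mTORC1, had 51.1, 25.1 and 22.5 CPM in the Myc-deleted libraries and 20.6, 23.2 and 22.7 CPM in the controls. Its log2 fold change of 0.57 ± 0.27 SE (edgeR adjusted p = 0.245) rested on Myc-deleted library 1, without which it was 0.10. Tigar, a phosphatase that slows glycolysis, did not pass (log2 fold change 0.22 ± 0.18 SE, edgeR adjusted p = 0.525).

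Of the 3 death receptors, 1 rose, 1 did not pass and 1 was too low to be tested, while 4.22% of all genes tested rose. Tnfrsf10b (chromosome 14, 69767472 to 69784411), the mouse receptor for the death ligand TRAIL, had 14.4, 15.0 and 15.9 CPM in the Myc-deleted libraries and 6.36, 7.95 and 6.64 CPM in the controls. It rose 2.15-fold (log2 1.11 ± 0.13 SE, edgeR adjusted p = 0.00156). Fas, the receptor for Fas ligand, had 12.5, 13.2 and 10.7 CPM in the Myc-deleted libraries and 15.1, 15.8 and 15.7 CPM in the controls. All 3 Myc-deleted libraries were lower for Fas, but the log2 fold change of -0.36 ± 0.12 SE did not pass (edgeR adjusted p = 0.105).

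Eda2r, on chromosome X, encodes a receptor for a form of ectodysplasin. It had 8, 3 and 3 counts in the Myc-deleted libraries and 0, 0 and 0 in the controls. It was too low for the main test, and without the filter on low counts it did not pass (edgeR adjusted p = 0.0587). Against a floor of 3 counts over the control group, its level was 4.51-fold higher in the Myc-deleted mice. That value comes with no test and no allowance for error in the 14 Myc-deleted counts. With Eda2r at that value, the median log2 fold change was 0.30 for the 34 members. For the death receptors it was 1.11, which is the value of Tnfrsf10b itself, against 0.37 over the 2 tested. Both medians with Eda2r rest on a chosen floor for a gene without control counts, so they add no support for a rise.

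Of 6 members listed as other death effectors, 2 rose, Aen and the ribosomal protein variant Rps27l, against 4.22% of all genes tested. Aen, a nuclease that digests DNA and RNA during apoptosis, had 12.0, 11.9 and 13.9 CPM in the Myc-deleted libraries and 7.75, 5.79 and 7.05 CPM in the controls. The groups did not overlap, and Aen rose 1.84-fold (log2 0.88 ± 0.15 SE, edgeR adjusted p = 0.00783). Pidd1, which assembles a platform for caspase-2, had Myc-deleted libraries above all controls but few counts, and did not pass (log2 fold change 0.37 ± 0.21 SE). Ei24, a membrane protein of the endoplasmic reticulum, did not pass either (log2 fold change 0.21 ± 0.08 SE, edgeR adjusted p = 0.172).

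Apaf1, the core of the apoptosome, averaged 80.6 ± 4.24 CPM in the Myc-deleted and 75.8 ± 8.53 CPM in the control libraries (SD, n = 3 each). Perp, a membrane protein of desmosomes, averaged 312 ± 18.6 CPM in the Myc-deleted and 289.8 ± 22.9 CPM in the control libraries. Both had overlapping groups, with log2 fold changes of 0.09 ± 0.09 SE and 0.10 ± 0.08 SE. Per kilobase of exon, Perp was the most abundant member in either genotype, at 159.6 CPM per kilobase in the Myc-deleted and 148 in the control libraries.

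Rps27l is a p53 target that encodes a variant of the ribosomal protein Rps27. It had 96.2, 105 and 114 CPM in the Myc-deleted libraries and 80.9, 82.2 and 78.1 CPM in the controls. It rose 1.30-fold (log2 0.38 ± 0.08 SE, edgeR adjusted p = 0.02), but without any library other than Myc-deleted library 1 its adjusted p was 0.0586 to 0.0799. Rps27l also did not pass against a 1.2-fold change (glmTreat adjusted p = 0.313). Rps27 had 185, 194 and 199 CPM in the Myc-deleted libraries and 252, 297 and 257 CPM in the controls. It fell (log2 fold change -0.48 ± 0.08 SE, edgeR adjusted p = 0.00785), so this pair of paralogs moved in opposite directions. Their coding sequences from GENCODE M21 are printed to show how far they differ, with each differing base in capitals.
Rps27l (chromosome 9, Rps27l-201): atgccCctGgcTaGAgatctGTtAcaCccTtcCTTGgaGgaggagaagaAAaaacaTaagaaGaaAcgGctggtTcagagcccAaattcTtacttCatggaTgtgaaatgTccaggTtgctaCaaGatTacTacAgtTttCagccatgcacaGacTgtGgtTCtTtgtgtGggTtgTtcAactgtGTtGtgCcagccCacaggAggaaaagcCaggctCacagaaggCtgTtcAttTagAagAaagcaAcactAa
Rps27 (chromosome 3, Rps27-201): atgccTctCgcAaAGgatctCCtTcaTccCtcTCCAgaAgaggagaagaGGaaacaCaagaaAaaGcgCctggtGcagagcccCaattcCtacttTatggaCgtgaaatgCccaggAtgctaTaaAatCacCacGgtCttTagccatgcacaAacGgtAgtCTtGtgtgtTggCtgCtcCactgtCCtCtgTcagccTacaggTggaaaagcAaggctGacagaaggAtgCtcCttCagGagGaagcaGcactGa
Both have 255 coding bases, of which 61 differ (76.1% identical), and 53 of these are at the third position of a codon. The longest stretch shared without a difference is 11 bases.

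**Figure D3:**
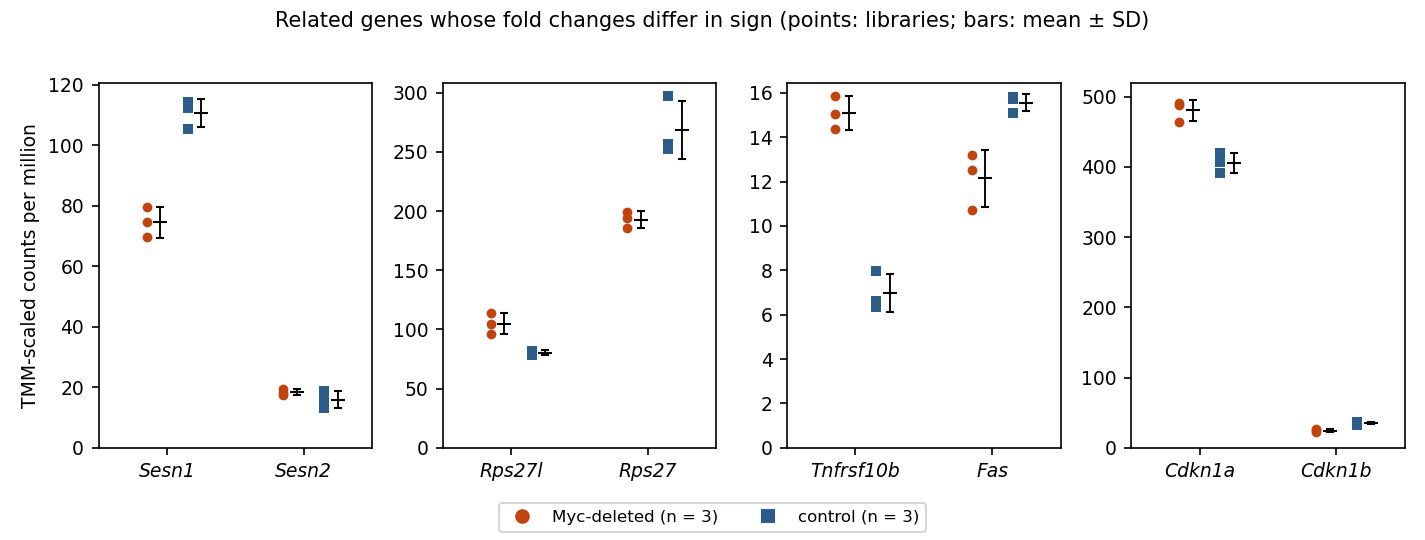
Level in each library (points, CPM, axes from 0) of 4 pairs of related genes, Myc-deleted (circles) left of control (squares), with mean ± SD (n = 3 each). Sesn1, Rps27 and Cdkn1b were lower in all Myc-deleted libraries and Rps27l and Tnfrsf10b higher, while Sesn2 overlapped; Fas and Cdkn1a did not overlap but did not pass the test.

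The calls that held with each library left out were those with the smallest p. For Ccng1 the leave-one-out adjusted p reached 0.000625 at most, for Plk2 0.0032, for Phlda3 0.00629 and for Tnfrsf10b 0.00759. For Sesn1 it reached 0.0191, for Mdm2 0.022, for Zmat3 0.0265 and for Aen 0.0384.

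**Figure D4:**
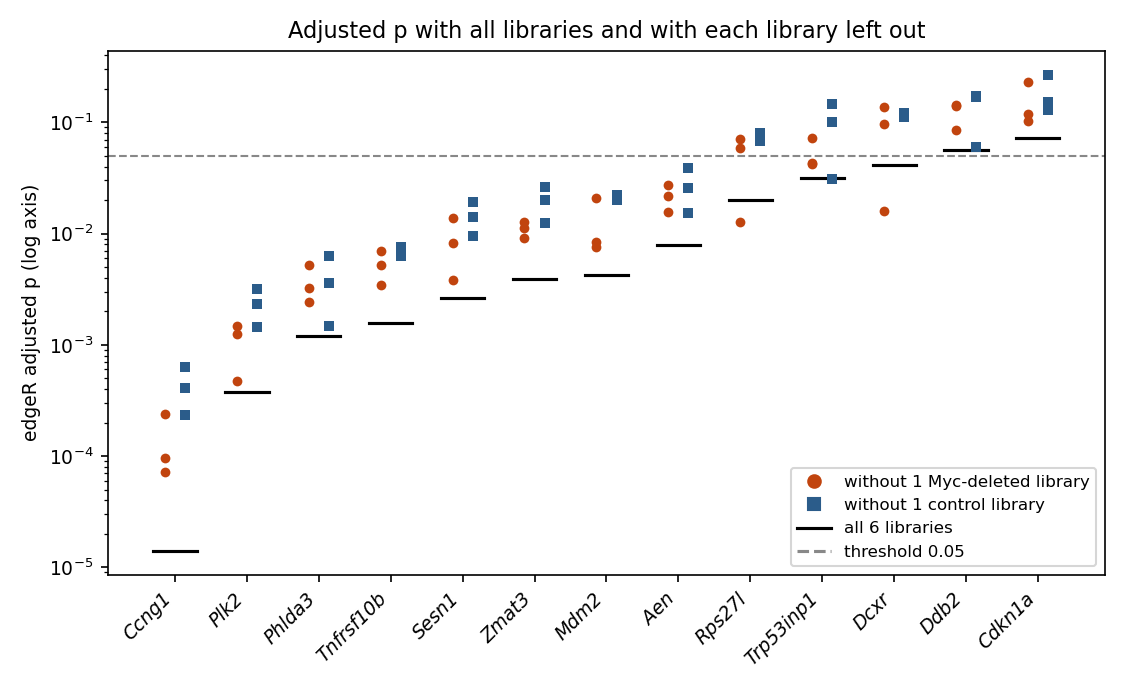
edgeR adjusted p (log axis) of the 11 members past the threshold and of Ddb2 and Cdkn1a, with all 6 libraries (bars), without 1 Myc-deleted library (circles) and without 1 control library (squares). For Ccng1, Plk2, Phlda3, Tnfrsf10b, Sesn1, Zmat3, Mdm2 and Aen all points lie below the dashed threshold of 0.05; for Rps27l, Trp53inp1 and Dcxr some lie above it.

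Outside the members, 41 other p53 targets were listed, of which 34 were tested. Among them 3 rose (8.82%) and 1 fell (2.94%), against 4.22% and 3.73% of all genes tested. Their median log2 fold change was 0.05, which turned to -0.03 without control library 3. Bax, the pore-forming effector of apoptosis, rose 1.63-fold to 48.7 ± 5.35 CPM in the Myc-deleted libraries, against 29.9 ± 3.82 CPM in the controls (edgeR adjusted p = 0.00609). Ephx1, an epoxide hydrolase, rose 4.59-fold (log2 2.20 ± 0.33 SE, edgeR adjusted p = 0.00404), and the log2 fold change was 2.82 without control library 2, the highest control. Ddit4l, a relative of Ddit4, rose 3.91-fold (edgeR adjusted p = 0.00617). Steap3, an iron reductase, fell (log2 fold change -0.91 ± 0.21 SE, edgeR adjusted p = 0.026), with an adjusted p of up to 0.101 with a library left out. The apoptosis triggers Bbc3 (log2 fold change -0.42 ± 0.23 SE) and Pmaip1 (0.23 ± 0.10 SE) did not pass.

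Of 31 tested activators and inhibitors of p53, 1 rose (3.23%) and 3 fell (9.68%), against 4.22% and 3.73% of all genes tested. The fallers were the Mdm2-binding ribosomal proteins Rpl5, Rpl11 and Rpl23. The ribosomal protein gene Rps27, which is not in this list, fell as well (log2 fold change -0.48). Whether the falls go with Mdm2 binding was not tested. Rpl5 averaged 169.8 ± 17.1 CPM in the Myc-deleted and 300.02 ± 29.6 CPM in the control libraries (log2 fold change -0.82 ± 0.10 SE, edgeR adjusted p = 0.00156). Rpl11 averaged 202 ± 17.95 CPM in the Myc-deleted and 282 ± 13.2 CPM in the control libraries (log2 -0.48 ± 0.08 SE, edgeR adjusted p = 0.00837), and Rpl23 had a log2 fold change of -0.66 ± 0.09 SE. The expected counts of these ribosomal protein genes and of Rps27 were fractional, so some of their reads were not assigned to 1 gene alone, and their values are uncertain to that extent. Hipk2, a kinase that phosphorylates p53, rose 1.34-fold (edgeR adjusted p = 0.0258, and 0.028 to 0.104 with a library left out).

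Of 32 cell cycle genes that p53 and p21 are known to lower, none passed with edgeR. At an unadjusted p under 0.05, 0 of them had a positive and 4 (12.5%) a negative log2 fold change, against 11.7% and 10.4% of all genes. DESeq2 and limma voom called 0 as well. The median log2 fold change was -0.05, and it was 0.04 without Myc-deleted library 1. Mki67, a marker of dividing cells, had a log2 fold change of -0.39 ± 0.12 SE (edgeR adjusted p = 0.0826), and it passed when low counts were not filtered or when replicate number was a block. Among 13 tested paralogs of the members, Phlda1 rose 1.97-fold (edgeR adjusted p = 0.00334), and Rps27 and Cdkn1b fell. That is 7.69% higher and 15.4% lower, against 4.22% and 3.73% of all genes tested. Cdkn1b encodes p27, the relative of p21, and averaged 24.5 ± 2.10 CPM in the Myc-deleted and 34.9 ± 1.64 CPM in the control libraries (log2 fold change -0.51 ± 0.09 SE, edgeR adjusted p = 0.0102).

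No marker of epithelium, smooth muscle, fibroblasts, endothelium, T and natural killer cells, B and plasma cells or macrophages and dendritic cells passed with edgeR. At an unadjusted p under 0.05, where 11.7% of all genes were higher and 10.4% lower, the higher ones were 2 of 8 epithelial and 1 of 5 tested crypt stem cell markers. The lower ones at that threshold were 3 of 7 smooth muscle, 1 of 8 T and natural killer cell, 1 of 8 macrophage and dendritic cell, 2 of 3 hepatocyte and 2 of 5 crypt stem cell markers. DESeq2 called 1 smooth muscle marker lower, and limma voom 1 crypt stem cell marker lower. The crypt stem cell markers went in both directions. Sox9 passed and rose (log2 fold change 0.86 ± 0.17 SE, edgeR adjusted p = 0.0141). Olfm4 averaged 3.13 ± 1.37 CPM in the Myc-deleted and 6.02 ± 0.389 CPM in the control libraries and did not pass (log2 fold change -0.94 ± 0.28 SE, edgeR adjusted p = 0.0738, and 0.0108 to 0.200 with a library left out). Smoc2 averaged 3.41 ± 1.03 CPM in the Myc-deleted and 6.38 ± 1.60 CPM in the control libraries and did not pass (log2 fold change -0.90 ± 0.27 SE, edgeR adjusted p = 0.0783). Neither had overlapping groups. Axin2, which made up most of the summed level of this list, had a log2 fold change of -0.00167 ± 0.19 SE, and Lgr5 was too low to be tested. Hepatocyte markers summed to 7.06 to 9.33 CPM in the Myc-deleted and 11.2 to 16.9 CPM in the control libraries, and Alb among them fell (0.582 ± 0.433 CPM in the Myc-deleted and 2.61 ± 0.667 CPM in the control libraries, edgeR adjusted p = 0.0326, and up to 0.130 with a library left out). The part of cell composition in the changes of the members was not tested.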

How the data were processed

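Messenger RNA of 6 intestine libraries was prepared with a stranded kit, per the labels' protocols. The deposited values are expected counts per gene with no scaling between libraries. cutadapt, STAR, Picard, RSEM and the build mm10 are named in the submitters' processing notes, with no version, and the annotation release is not given in the sources used here. Symbols and gene models are from GENCODE M21 (99.1% of identifiers matched), and exon length is the union of all exons.

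After rounding, the expected counts went into edgeR 4.0.16 (R 4.3.3): filterByExpr (minimum count 10, minimum total 15), TMM and the quasi-likelihood F-test for Myc-deleted over control libraries, adjusted by Benjamini-Hochberg across the 12720 genes tested and a threshold of 0.05. The SE is the size of the log2 fold change divided by the root of its F value. Log2 CPM used a prior count of 2, and 3 counts correspond to 0.265 to 0.301 CPM, which covers counting error only. Alternatives were DESeq2 1.42.0, limma 3.58.1 (voom), RLE and upper-quartile scaling, 2 other filters, a replicate block, glmTreat, a threshold of 0.1 and each library left out. The procedure was tested on simulated counts.

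The members and lists were chosen with earlier results of these data known. All 34 members were named; from each other pathway list, up to 4 genes past the threshold with the lowest p were named, with Rps27, Rpl5, Rpl11, Bax, Bbc3 and Pmaip1. Mki67, Alb, Sox9, Olfm4, Smoc2, Axin2 and Lgr5 were named after their values were seen.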

Additional observations from a re-analysis of the deposited data

How the results depend on the processing

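With the alternatives other than leaving out a library, 7 to 12 of the members rose. The fewest rose with glmTreat against a 1.2-fold change, where Dcxr, Rps27l and Trp53inp1 lost their calls. Leaving out 1 library gave 7 to 9 risers, and 7 of the risers and the faller Sesn1 kept their calls in each of these 6 runs. The fallers numbered 2 with upper-quartile scaling and 2 at a threshold of 0.1, Ddb2 being added in both, and 1 under the other alternatives. Over all genes, 230 rose and 178 fell with glmTreat against a 1.2-fold change, and 824 rose and 748 fell at a threshold of 0.1. Leaving out 1 library gave 229 to 503 risers and 233 to 447 fallers over all genes, the fewest without control library 2. Risers fell below the full count by over 1.5 times without Myc-deleted library 2 (337), control library 1 (343) or control library 2 (229), and fallers without these (302, 303 and 233) or control library 3 (313). Of 704 fold changes of 47 named genes recomputed, 660 kept their direction and their side of the threshold, 33 lost the call, 6 gained it and 5 reversed. The reversals were Ercc5, at -0.019 with upper-quartile scaling and between -0.087 and 0.087 with a library left out, and Mdm4, between -0.045 and 0.034 with a library left out. The cause was not tested.

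Whether the replicate number pairs the samples is unknown, and any shared deviation was small. The deviations of libraries with the same number correlated at 0.02 to 0.05, although each correlated best with its own number. With the replicate number as a block, 9 members rose and 1 fell, and 552 and 428 of all genes. With upper-quartile scaling the median log2 fold change of all genes was -0.04, and 449 genes rose and 591 fell, against 537 and 474 with TMM. Depth limits Phlda3, Gdf15, Psrc1 and Eda2r most, which had 14 counts or fewer in every control library.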
